A study of Mus musculus with 34 samples.

Results

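The set described here holds 37 genes for nuclear receptors and for the proteins that receptors recruit to switch genes on or off. Its members were chosen by symbol. Each of the 37 GENCODE mouse symbols matched 1 of the 54532 rows of the bulk RNA-seq count table. There are 27 nuclear receptors, 8 coactivators and 2 corepressors. The 27 receptors are part of the 49 nuclear receptors listed for mouse. The other 22, among them the Nr4a family, the glucocorticoid receptor and the retinoid X receptors, served as a comparison list.

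RNA was measured in whole dorsal hippocampus from adult male C57BL/6J mice, 2 to 3 months old by the study's methods, with no transgene or drug in either group. The groups were 4 homecage mice and 4 mice euthanized 1 h after training in spatial object recognition (SOR), a task in which a mouse explores an open field and then learns where 3 objects stand in it. By the study's methods, mice were housed singly and handled before training. The methods also state that homecage mice were euthanized at the same time, in a passage that does not name the bulk RNA-seq mice. Every sample was 1 library, and the spatial, single-nucleus and chromatin samples of the series were not analysed here.

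Nuclear receptors are transcription factors whose activity is set by small lipophilic ligands such as thyroid hormone, retinoic acid, oxysterols, fatty acids and steroids, while orphan members have no settled ligand. Many sit on DNA in both states: without ligand they hold a corepressor complex built on scaffolds such as Ncor1 with the deacetylase Hdac3, and with ligand they exchange it for p160 coactivators (Ncoa1, Ncoa2, Ncoa3) and the acetyltransferases Crebbp and Ep300. In the hippocampus, thyroid hormone and retinoic acid signaling are known for roles in neuronal maturation and synaptic plasticity.

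Total counts per library lay between 51406011 and 81525977. Levels are given as CPM (counts scaled to a common library size) after upper-quartile scaling, and levels of different genes are compared only as CPM per kilobase of exon length. Markers of the labelled tissue were present in all 8 libraries, with CA1 pyramidal markers summing to 245 to 281 CPM in homecage mice and to 251 to 284 CPM after SOR, and dentate granule markers to 238 to 273 and 213 to 266 CPM. SOR replicate 1 stood apart by its choroid plexus RNA: the 5 markers summed to 3915 CPM there, against 7.24 to 1060 CPM in the other 7 libraries. The summed mature oligodendrocyte markers lay at 5021 to 5480 CPM without and 4109 to 5381 CPM with training. The part of these differences in any result below was not tested. In bulk tissue, fewer cells of a type and less RNA per cell cannot be told apart.

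None of the 37 members passed the test for a change 1 h after SOR training. At an adjusted p under 0.05 with a fold change above 1.4 (edgeR quasi-likelihood test, Benjamini-Hochberg adjustment), 0 of the 35 members tested were called, beside 0.173% of the 22018 genes tested. Without the fold threshold the count was also 0, beside 0.309% of all genes. At an unadjusted p under 0.05 there were 4 members, 11.4% of those tested, and 10.1% of all genes met that rule. DESeq2 counted 6 members at an unadjusted p under 0.05, 17.1% of those tested beside 9.96% of all genes, and 0 members at an adjusted p under 0.05 beside 1.98% of all genes. Non-overlapping groups, with all 4 SOR libraries on one side of all 4 homecage libraries, were seen in 0 members and in 6.94% of genes tested. The remaining 2 members, *Esr2* and *Vdr*, had too few counts for the test.

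The intervals bound how large a change could have gone unseen. For 26 of the 35 members the 95% interval of the fold change lay within a fold of 1.4 in either direction, which held for 58.9% of all genes tested. These 26 were 16 of the 25 receptors tested and all 10 coregulators. The 9 members with wider reach were *Rara*, *Rarg*, *Ppara*, *Pparg*, *Nr2e1*, *Esr1*, *Esrrb*, *Nr5a2* and *Nr6a1*. A 95% interval that reaches past 1.4-fold leaves a change of that size possible at this depth and number of mice.

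**Figure D1:**
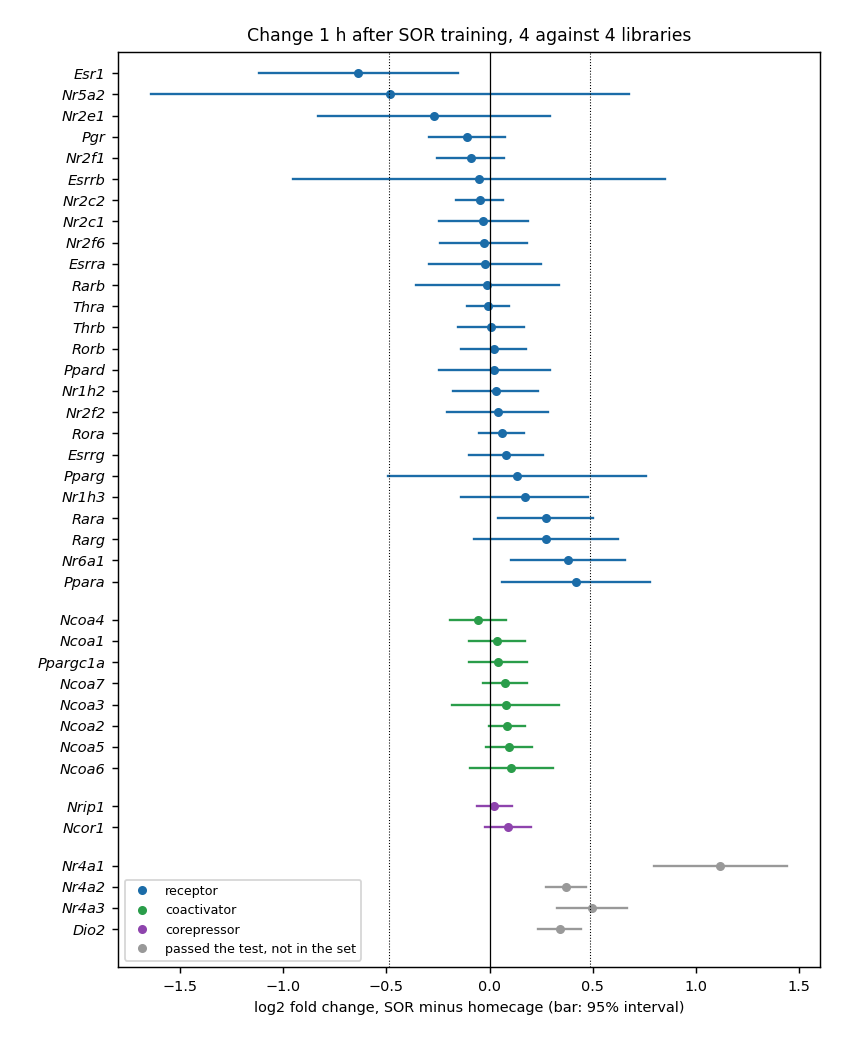
Log2 fold change of each tested member, SOR minus homecage, with its 95% interval from the edgeR quasi-likelihood fit (4 against 4 libraries), grouped into receptors, coactivators and corepressors. Dotted lines mark a fold of 1.4. Gray points are 4 genes outside the set that passed an adjusted p of 0.05. The coregulator intervals all lie inside the dotted lines, while those of *Esr1*, *Nr5a2* and *Esrrb* are among the widest.

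Among the thyroid hormone receptors, *Thra* had the highest level per kilobase of the whole set, while *Thrb* stood at 5.22 CPM per kilobase. *Thra*, which encodes the main thyroid hormone receptor of the brain, was at 534, 559, 568 and 559 CPM in the homecage libraries and at 528, 542, 546 and 592 CPM in the SOR libraries. The groups overlapped throughout, and the log2 fold change was -0.01 (95% interval -0.11 to 0.09). Per kilobase, *Thra* stood at 120 CPM, and its ratio to *Thrb*, the second receptor gene, ranged from 20.1 to 26.5 over the 8 libraries. Homecage mice had *Thrb* at 38.6 ± 2.70 CPM and SOR mice at 38.7 ± 3.6 CPM (SD, n = 4 each), with a log2 fold change of 0.01 (interval -0.15 to 0.17). Exons of *Thra* share 5.7% of their length with *Nr1d1* on the opposite strand, and the strand setting of the counting is not stated.

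Among the retinoic acid receptors, *Rara* had the smallest p. It was at 9.72, 9.62, 9.28 and 11.1 CPM in homecage and at 10.4, 11.1, 13.7 and 12.8 CPM in SOR libraries, so 3 of the 4 homecage values lay below all SOR values and homecage replicate 4 lay among them. The log2 fold change was 0.27 (SE 0.104, interval 0.04 to 0.50), with an unadjusted p of 0.0248 and an adjusted p of 0.416 in edgeR, and the exact two-sided permutation p was 0.0857. *Rarg* was at 4.25 ± 0.800 and 5.16 ± 0.770 CPM, a log2 fold change of 0.27 with a wider interval of -0.08 to 0.62. *Rarb*, itself a classical target gene of retinoic acid, was at 3.25 ± 0.606 and 3.23 ± 0.458 CPM, a log2 fold change of -0.01 (interval -0.36 to 0.33). With 34.1% of its exon length shared with *Top2b* on the opposite strand, the level of *Rarb* is uncertain. Per kilobase the order was *Rara* 2.51, *Rarg* 1.10 and *Rarb* 0.616 CPM, and *Rara* exceeded *Rarg* in all 8 libraries by 1.97 to 2.71 times.

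The lipid-sensing receptors comprise the fatty acid receptors of the PPAR family and the oxysterol receptors of the LXR family. *Ppara*, which drives fatty acid oxidation genes, was at 1.63, 2.36, 2.02 and 1.57 CPM in homecage and at 2.61, 2.95, 2.26 and 2.32 CPM in SOR libraries. Only homecage replicate 2 lay above the lowest SOR values. Its log2 fold change was 0.42 (SE 0.162, interval 0.06 to 0.78), the highest in the set, with an unadjusted p of 0.0258 and an adjusted p of 0.423 in edgeR and an exact permutation p of 0.0857. *Ppard*, the most widely expressed PPAR, was at 5.33 ± 0.254 and 5.42 ± 0.822 CPM (log2 fold change 0.02). *Pparg*, best known from fat tissue, was at 0.821 to 1.80 CPM in homecage and 0.901 to 1.92 CPM in SOR libraries. *Nr1h2*, encoding LXR-beta, was at 21.6 ± 2.22 and 22.0 ± 2.25 CPM, a log2 fold change of 0.03 (interval -0.18 to 0.24). *Nr1h3*, encoding LXR-alpha, was at 2.94 ± 0.485 and 3.31 ± 0.281 CPM. Per kilobase *Nr1h2* exceeded *Nr1h3* by 4.60 to 6.01 times in every library.

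*Rora* and *Rorb*, receptors that act on clock genes and neuronal differentiation, were tight between libraries. *Rora* was at 51.4 ± 1.90 and 53.6 ± 2.83 CPM, and *Rorb* at 34.6 ± 2.36 and 35.1 ± 2.89 CPM. Their log2 fold changes were 0.06 (interval -0.05 to 0.17) and 0.02 (interval -0.14 to 0.18).

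All 6 NR2 orphan receptors had groups that overlapped. *Nr2c2*, encoding testicular receptor 4, was the most abundant of them per kilobase, at 8.79 CPM. It was at 133 ± 1.6 and 129 ± 9.52 CPM with a log2 fold change of -0.05 (interval -0.16 to 0.07). Of its exon length, 30.7% is shared with *Mrps25* on the opposite strand. Its paralog *Nr2c1* was at 8.79 ± 0.794 and 8.61 ± 0.722 CPM. *Nr2f1* and *Nr2f2*, the COUP-TF receptors that pattern cortex and hippocampus in development, had log2 fold changes of -0.09 and 0.04, and per kilobase *Nr2f1* exceeded *Nr2f2* by 5.30 to 8.28 times. *Nr2f6* was at 9.16 ± 1.04 and 8.99 ± 0.305 CPM, with 54.4% of its exon length shared with *Ocel1* on the opposite strand. *Nr2e1*, the receptor TLX of neural stem cells, was at 5.32, 5.47, 12 and 5.06 CPM in homecage and at 5.97, 5.10, 5.93 and 6.05 CPM in SOR libraries. Homecage replicate 3 alone was high, and the log2 fold change of -0.27 with all libraries became 0.13 without it (adjusted p 0.826 in edgeR).

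The steroid and vitamin D receptors of the set were mostly low. *Esr1*, encoding estrogen receptor alpha, was at 2.43, 2.71, 1.62 and 2.35 CPM in homecage and at 1.02, 1.39, 1.98 and 1.49 CPM in SOR libraries. In *Esr1*, 3 homecage values lay above all SOR values, and homecage replicate 3 lay below SOR replicate 3. The log2 fold change was -0.64 (SE 0.218, interval -1.12 to -0.15), the lowest in the set, with an unadjusted p of 0.0145 and an adjusted p of 0.358 in edgeR and an exact permutation p of 0.0571. *Pgr*, the progesterone receptor, was more abundant per kilobase than *Esr1* by 13.8 to 27.6 times, and was at 22.9 ± 0.697 and 21.2 ± 2.48 CPM (log2 fold change -0.11, interval -0.29 to 0.07). *Esr2*, encoding estrogen receptor beta, had between 0.98 and 9.73 estimated counts per library. *Vdr*, the vitamin D receptor, had between 1 and 14.6, with its highest value in SOR replicate 1. At such counts a change in either gene was not detectable.

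The estrogen-related receptors bind no estrogen and work with PGC-1alpha on mitochondrial genes. *Esrra* was at 25.4 ± 4.34 and 25.0 ± 2.91 CPM, *Esrrg* at 10.2 ± 0.450 and 10.8 ± 0.823 CPM, and *Esrrb* at 0.782 ± 0.321 and 0.750 ± 0.379 CPM. *Esrra* ranged from 20.5 to 29.5 CPM among homecage mice alone, so its log2 fold change of -0.02 carried an interval of -0.29 to 0.25. *Nr5a2*, encoding the liver receptor homolog LRH-1, was low, at 0.253 ± 0.123 and 0.177 ± 0.111 CPM.

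*Nr6a1*, an orphan receptor also called germ cell nuclear factor that represses pluripotency genes in the embryo, had the smallest p of the set. It was at 7.79, 7.69, 8.53 and 7.17 CPM in homecage and at 8.49, 8.77, 11.2 and 12.2 CPM in SOR libraries. SOR replicates 3 and 4 were high, while SOR replicate 1 lay just below homecage replicate 3. The log2 fold change was 0.38 (SE 0.126, interval 0.10 to 0.66), with an unadjusted p of 0.0119 and an adjusted p of 0.332 in edgeR and an exact permutation p of 0.0571. Its adjusted p ranged from 0.0679 with DESeq2 to 0.607 with 1 library left out.

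**Figure D2:**
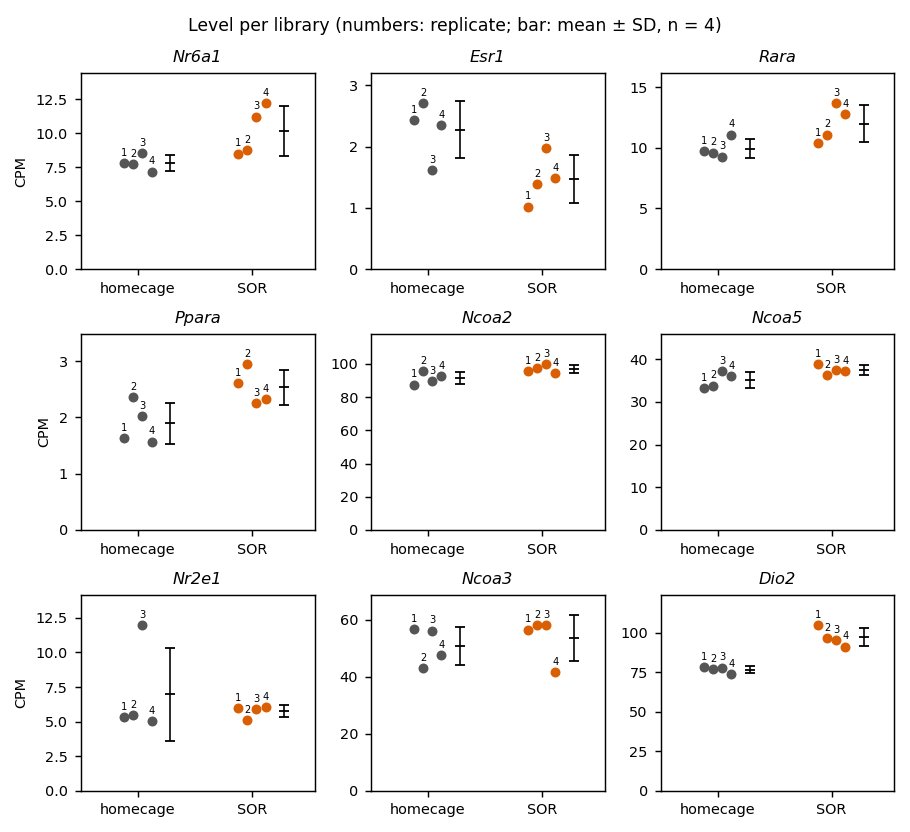
CPM in each library for 9 genes, homecage in gray and SOR in orange, with the replicate number above each point and the mean ± SD (n = 4) beside each group; every axis starts at 0. *Nr6a1*, *Rara* and *Ppara* overlap between groups by 1 or 2 libraries, *Nr2e1* has a single high homecage library at 12 CPM, and *Dio2*, which is outside the set, separates fully.

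All 8 coactivators had 95% intervals within a fold of 1.4 either way. *Ncoa2*, a p160 coactivator, had the smallest p among them: it was at 87.6, 95.8, 89.9 and 92.7 CPM in homecage and at 95.7, 97.4, 100 and 94.5 CPM in SOR libraries. Homecage replicate 2 lay inside the SOR range. The log2 fold change was 0.08 (SE 0.0399, interval -0.01 to 0.17), with an unadjusted p of 0.0626 and an adjusted p of 0.522 in edgeR and an exact permutation p of 0.0857. The paper lists *Ncoa2* among genes higher after training in its pseudobulk spatial data but not found by its bulk RNA-seq. That measure covered selected hippocampal subregions. The paper's results describe the spots of a slice as pooled into a pseudo-sample, while its methods take each spot as a replicate in a Kruskal-Wallis test. In either case the measure is unlike the whole-tissue comparison here. *Ncoa5*, a coactivator that also binds orphan receptors, was at 33.2, 33.8, 37.2 and 36.1 CPM against 38.9, 36.3, 37.5 and 37.3 CPM. Only homecage replicate 3 lay within its SOR range. Its log2 fold change was 0.09 (SE 0.0512, interval -0.02 to 0.21), with an unadjusted p of 0.0931 and an adjusted p of 0.578 in edgeR and an exact permutation p of 0.0571.

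The other 6 coactivators had log2 fold changes from -0.06 for *Ncoa4*, which also delivers ferritin for breakdown, to 0.10 for *Ncoa6*, a subunit of histone methyltransferase complexes. *Ncoa1*, the most abundant coactivator at 19.6 CPM per kilobase, was at 166 ± 13 and 171 ± 9.46 CPM (log2 fold change 0.04), with homecage replicate 1 the lowest library at 147 CPM. It exceeded *Ncoa2* per kilobase by 3.01 to 3.45 times. *Ncoa3*, the third p160 member, varied widely in both groups: it was at 56.6, 42.9, 56.2 and 47.7 CPM in homecage and at 56.5, 58.2, 58.1 and 41.6 CPM in SOR libraries. Homecage replicates 2 and 4 and SOR replicate 4 were low. *Ncoa7*, linked to protection from oxidative stress, was at 87.8 ± 5.82 and 92.4 ± 1.08 CPM. *Ppargc1a*, which encodes the PGC-1alpha regulator of mitochondrial biogenesis, was at 36.5, 34.5, 33.8 and 35.6 CPM in homecage and at 33.8, 38.4, 39.0 and 33.1 CPM in SOR libraries. That is a log2 fold change of 0.04 with an interval of -0.10 to 0.18.

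Of the corepressors, *Ncor1*, the scaffold that brings Hdac3 to unliganded receptors, was the second most abundant member per kilobase at 30.6 CPM. It was at 350, 381, 406 and 382 CPM in homecage and at 386, 420, 406 and 403 CPM in SOR libraries. The ranges of the groups overlapped, and the log2 fold change was 0.09 (interval -0.02 to 0.20, adjusted p 0.595 in edgeR). *Nrip1*, the ligand-dependent corepressor RIP140, was at 83.4 ± 2.81 and 84.8 ± 2.20 CPM, a log2 fold change of 0.02 (interval -0.06 to 0.11). It had the smallest coefficient of variation within groups of the 35 members, 3.01%.

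**Figure D3:**
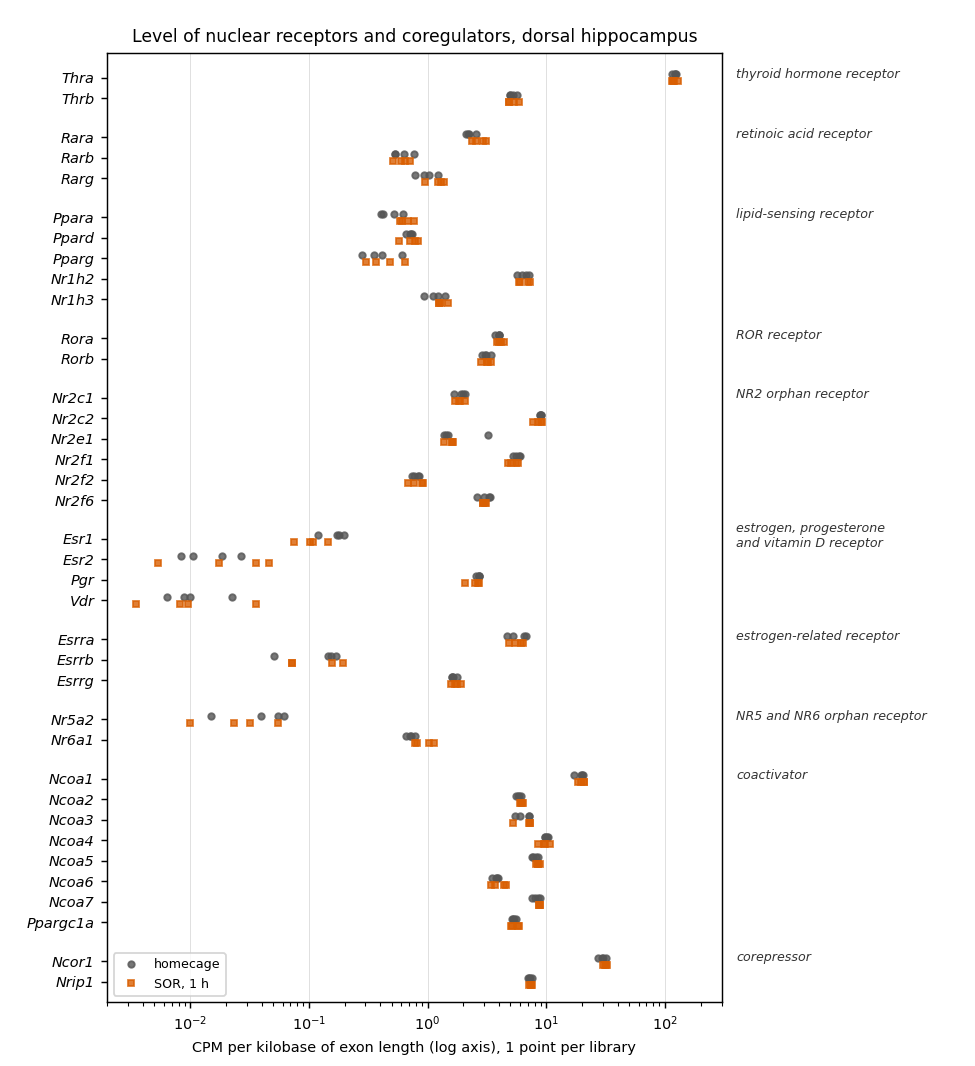
Level of all 37 members in CPM per kilobase of exon length on a log axis, 1 point per library, homecage circles above SOR squares, grouped by role. *Thra* at 120 and *Ncor1* at 30.6 CPM per kilobase lead, and *Esr2*, *Vdr* and *Nr5a2* lie lowest.

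Receptors and coregulators were then set side by side. The median level per kilobase was 1.71 CPM for the 25 receptors tested, 7.45 CPM for the 8 coactivators and 19.0 CPM for the 2 corepressors. Median log2 fold changes were 0.01 for receptors, 0.08 for coactivators and 0.06 for corepressors, beside -0.02 for all genes tested. Higher values in SOR were seen in 13 of 25 receptors, 7 of 8 coactivators and 2 of 2 corepressors, while 43.8% of all genes were higher. These are descriptions of small lists and were not tested. Per library, the median deviation of the coactivators from their homecage means was -0.05 to 0.04 in homecage and 0.01 to 0.11 in SOR mice, and that of the receptors was -0.01 to 0.03 and -0.04 to 0.04. Both pairs of ranges overlapped. For the corepressors the ranges were -0.08 to 0.05 and 0.00 to 0.11. The spread between mice was described in the same way. The median coefficient of variation within groups was 8.71% over the 35 members and 11.7% over all genes. Of the 35, 23 lay below the value for all genes. Levels were not matched between members and all genes: the widest members, *Nr5a2* at 56.3% and *Esrrb* at 46%, were both under 1 CPM.

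**Figure D4:**
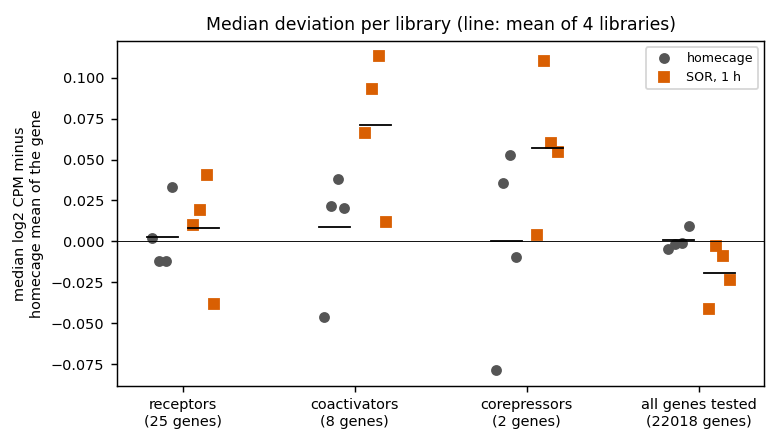
Median over genes of log2 CPM minus the gene's homecage mean, for each library, in receptors, coactivators, corepressors and all genes tested; black lines are means of 4 libraries. Coactivators spanned 0.01 to 0.11 in SOR libraries and -0.05 to 0.04 in homecage libraries, and the groups overlap in each class of members.

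Among the 22 other nuclear receptors 14 could be tested. Of these 3 passed an adjusted p of 0.05, all higher: the immediate early receptors *Nr4a1* (log2 fold change 1.12), *Nr4a3* (0.50) and *Nr4a2* (0.37). With a fold of 1.29, *Nr4a2* was under the fold threshold. Of 11 other coactivators 0 passed, from *Pprc1* at 0.33, a relative of PGC-1alpha, to the acetyltransferase gene *Kat2a* at -0.04, and 2 had an unadjusted p under 0.05. Of 8 other corepressors 0 passed, the lowest being *Hdac3* at -0.10, and 1 had an unadjusted p under 0.05, with edgeR in both lists. Among the 14 other receptors tested, 4 had an unadjusted p under 0.05 in edgeR. These were 18.2% of the coactivators, 12.5% of the corepressors and 28.6% of the receptors, beside 10.1% of all genes.

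Genes that supply ligands or are known targets were also counted by list. Of the 10 for thyroid hormone, 3 had an unadjusted p under 0.05 in edgeR (30%), beside 10.1% of all genes. Of 10 genes for thyroid hormone supply and response, 1 passed an adjusted p of 0.05: *Dio2*, the deiodinase that makes active thyroid hormone in the brain. It was at 78.2, 77.1, 77.9 and 73.7 CPM in homecage and at 105, 96.7, 95.5 and 91.2 CPM in SOR libraries. All SOR values lay above all homecage values, with a log2 fold change of 0.34 (SE 0.0473, adjusted p 0.0144 in edgeR, a fold of 1.27 and so under the fold threshold). The target gene *Hr*, a corepressor of the thyroid hormone receptor, was lowest of that list at -0.61 (adjusted p 0.455 in edgeR), with homecage replicates 1 and 2 high at 15.6 and 21.4 CPM and the other 6 libraries at 7.73 to 11.2 CPM. *Klf9*, a direct target of thyroid hormone and of glucocorticoid receptors that is named here after its values were seen, was at 148 to 159 CPM in homecage and at 171 to 190 CPM in SOR libraries (log2 fold change 0.21, adjusted p 0.0909 in edgeR).

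In the remaining lists 0 genes passed an adjusted p of 0.05 with edgeR. Counts at an unadjusted p under 0.05 in edgeR are given for each, beside 10.1% of all genes. Of the 10 retinoid supply genes, *Cyp26b1* was lowest at -0.02 among those at 1 CPM or more, and 0 of them had an unadjusted p under 0.05. Their median log2 fold change was 0.18, and 8 of the 10 were higher in SOR, beside 43.8% of all genes. The 8 tested genes of sterol supply and LXR response ran from *Cyp46a1* at 0.02 to *Srebf1* at -0.36, with 2 at an unadjusted p under 0.05. Of the 7 PPAR targets, *Pdk4*, which restrains glucose oxidation, was highest at 0.45 (adjusted p 0.103), with 1 at an unadjusted p under 0.05. Among the 8 targets of PGC-1alpha and the estrogen-related receptors the range was 0.09 for *Syt2* to -0.08 for *Atp5o*, and 0 had an unadjusted p under 0.05. Of 4 steroid and vitamin D genes 2 could be tested, both under 1 CPM. *Greb1*, an estrogen receptor target, had a log2 fold change of -1.15 (adjusted p 0.373 in edgeR), and *Cyp27b1* one of 0.26. Only *Greb1* had an unadjusted p under 0.05, 1 of the 2 tested.

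Promoters are shown for 4 genes to set the letters of hormone and activity response elements beside the levels above. RefSeq windows from 250 bases before to 50 bases after an annotated start (GRCm38.p6) were found for 34 of the 37 members, in 56 windows, and *Ncoa2*, *Ncoa3* and *Thra* had none. On either strand, the palindrome TGACGTCA, the full cyclic AMP response element (CRE), was in 2 of the 56 windows of members (3.57%), those of *Nr6a1* and *Nr2e1*, and in 1.79% of all 32851 windows. Its half-site TGACG, which is contained in the full element, was in 16 of the 56 windows (28.6%), from 14 members, and in 20.8% of all windows. The receptor half-site AGGTCA was in 9 of the 56 windows (16.1%), from 8 members, and in 16.3% of all windows. The half-sites GGTTCA and AGTTCA spaced by 5 bases, as in the classical retinoic acid response element, were in 1 of the 56 windows (1.79%). That window was of *Rarb*, and it was among the 2 of all 32851 windows with the pair (0.00609%). This pattern is known from the *Rarb* promoter itself, so its match there was fixed in advance and the shares measure no enrichment. A match describes letters and does not show binding. The RefSeq start used for *Rarb* lies 243680 bases inside the GENCODE gene and is an internal start, that of *Nr6a1* lies 1227 bases inside, and that of *Dio2* lies 600 bases before the GENCODE gene, so the levels above need not come from transcripts of these starts. The stretches below run 5′ to 3′ on the strand of the gene, with the matched letters, or their spaced pair with the bases between, in capitals.
Rarb, chr14:16575477-16575596, minus strand, 120 bases before the RefSeq start: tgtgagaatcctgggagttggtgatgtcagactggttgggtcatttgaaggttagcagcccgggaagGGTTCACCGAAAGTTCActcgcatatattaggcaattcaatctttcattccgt
Nr6a1, chr2:38926412-38926441, minus strand, bases 21 to 50 counted from the RefSeq start as base 1: cgtggcagcggcgcgTGACGTCAgaggagg
Ppargc1a, chr5:51567726-51567845, minus strand, 120 bases before the RefSeq start: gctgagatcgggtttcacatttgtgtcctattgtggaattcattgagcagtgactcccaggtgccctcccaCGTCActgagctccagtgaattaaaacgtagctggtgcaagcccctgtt
Dio2, chr12:90739039-90739158, minus strand, 120 bases before the RefSeq start: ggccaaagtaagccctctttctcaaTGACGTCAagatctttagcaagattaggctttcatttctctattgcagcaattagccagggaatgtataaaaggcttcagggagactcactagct

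Beside these letters stand the changes given above. *Rarb* and *Ppargc1a* had log2 fold changes of -0.01 and 0.04 with intervals inside 1.4-fold, *Dio2* rose by 0.34, and *Nr6a1* had 0.38 without passing the test. *Nr2e1*, the other member with the full CRE, had -0.27 with all libraries and 0.13 without homecage replicate 3. Whether the letters bear on any of these changes was not tested.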

How the data were processed

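Bulk RNA-seq of dorsal hippocampus was used from 8 of the 34 samples of the series. The methods name a stranded total RNA kit with removal of ribosomal RNA, while polyA RNA stands in the labels. Reads went through STAR and featureCounts within bcbio-nextgen by the methods, on mm10 by the labels. The values deposited by the authors are estimated counts per gene, not normalized, summarized with tximport, and 52.6% are not whole. The quantifier and its strand setting are not given in the sources used here.

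Counts were rounded to whole numbers, filtered with filterByExpr (22018 genes left), scaled by upper quartile and tested across all genes with the quasi-likelihood test of edgeR 4.0.16 (R 4.3.3, limma 3.58.1). P-values were adjusted with the Benjamini-Hochberg method, and genes were called where that value was under 0.05 and the fold exceeded 1.4 either way. SEs come from the log2 fold change and F, and intervals from the t distribution at 95%. Single genes also had an exact two-sided permutation test over 70 assignments of log2(CPM + 0.5), whose smallest p is 0.0286. Exon lengths are from GENCODE M21 (GRCm38), which holds 54495 of the IDs. Replicates differed by far more than counting error (chi-square per degree of freedom 11.1 to 49.2), and the p-values measure the spread between these mice, for which the labels name no litter or batch.

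In simulated data with 200 of 22018 genes changed, for this comparison, the test recovered 90% of genes changed 2-fold and 57% of those changed 1.4-fold. Recovery was counted at an adjusted p under 0.05 without the fold threshold, and 8 unchanged genes also passed. The changed genes all had a mean above 1 CPM, and the simulated spread followed the trend with level. Members at lower levels or with a wider spread are therefore not covered by these percentages. Members and lists were chosen with earlier results of these data known. The text gives all 37 members by role, full statistics for the 6 members with the smallest p, and from each list the genes past an adjusted p of 0.05 and the highest and lowest at 1 CPM or more. Some of these are not reported here. Other settings were scaling by TMM, RLE or library size, no filter, the likelihood ratio test, DESeq2 1.42.0 and limma-voom. Also fitted were 1 RUVs factor, which was tested with the likelihood ratio test, a replicate block, and each sample left out. Counts at an unadjusted p were added after seeing the data. Tables used Python 3.11.15, pandas 2.3.3 and numpy 2.4.6.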

Additional observations from a re-analysis of the deposited data

Results flagged for a closer look

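In each group of 4 libraries, a library was marked when its gap to the nearest other library was larger, relative to the range of the group, than the 95% critical value of Dixon's test. Over the 35 members tested and both groups, 4 of 70 sets of values were marked, or 5.71%, and chance marks about 1 in 20. *Nr2e1* was at 12 CPM in homecage replicate 3 and at 5.06 to 5.47 CPM in the other homecage libraries, and it was at 5.10 CPM in SOR replicate 2 and at 5.93 to 6.05 CPM in the other SOR libraries. *Rora* was at 48.6 CPM in homecage replicate 2, against 52.2 to 52.8 CPM. *Ncoa3* was at 41.6 CPM in SOR replicate 4, against 56.5 to 58.2 CPM. What set these libraries apart was not tested.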

How the results depend on the processing

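Under each of the 9 other settings with all samples and in each of the 8 fits with 1 sample left out, 0 members were called and 0 passed an adjusted p of 0.05. Few genes of any kind did: 0.182% to 1.98% of all genes tested passed with all samples, and 0.135% to 0.248% with 1 left out. The lowest adjusted p was 0.0679 (*Nr6a1*, DESeq2) with all samples and 0.224 (*Esr1*, without SOR replicate 3) with 1 left out. The number of members at an unadjusted p under 0.05 was 4 to 6 with all samples (10.8% to 17.1% of those tested, beside 7.73% to 10.5% of all genes) and 3 to 5 with 1 left out (8.57% to 14.3%, beside 7.76% to 10.4%). It was 5 without SOR replicate 1, the library rich in choroid plexus RNA (14.3%, beside 9.65%). *Esr1* and *Nr6a1* were among them in every fit. The median log2 fold change was 0.00 to 0.03 for receptors, 0.07 to 0.10 for coactivators and 0.06 to 0.08 for corepressors over the settings with all samples. With 1 sample left out it was 0.00 to 0.03, 0.04 to 0.08 and 0.03 to 0.07.

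Of the 35 members tested, 33 kept their sign under every setting with all samples. *Thra* became 0.0121 with TMM and 0.0134 with RLE and DESeq2. *Rarb* became 0.0090 with TMM, 0.0102 with RLE and 0.0087 with DESeq2. These settings move the median of all genes from -0.02 to 0.00. Leaving out 1 sample changed the sign of 14 members, whose log2 fold changes then spanned these ranges: *Esrra* -0.111 to 0.0550, *Esrrb* -0.365 to 0.137, *Ncoa1* -0.0146 to 0.0716, *Nr1h2* -0.0279 to 0.0852, *Nr2c1* -0.0892 to 0.0123, *Nr2e1* -0.396 to 0.125, *Nr2f2* -0.0190 to 0.116, *Nr2f6* -0.0971 to 0.0211, *Ppard* -0.0482 to 0.118, *Pparg* -0.102 to 0.371, *Rarb* -0.0909 to 0.117, *Rorb* -0.0235 to 0.0720, *Thra* -0.0463 to 0.0120 and *Thrb* -0.0549 to 0.0552. The sign changed for *Nr2e1* without homecage replicate 3 and for *Ncoa1* without homecage replicate 1, in each case for no other sample left out, while the other 12 each changed sign in 2 or more of the 8 fits.

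The replicate numbers did not pair the samples: deviations of same-numbered samples correlated at -0.10 to 0.15. With the replicate block in edgeR, 0 members passed an adjusted p of 0.05, beside 0.182% of all genes. An unadjusted p under 0.05 was met by 4 members (11.4%, beside 9.06% of all genes). The medians were 0.00, 0.07 and 0.06 for receptors, coactivators and corepressors.

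Without the filter, *Esr2* and *Vdr* had log2 fold changes of 0.72 and 0.32 (adjusted p 0.744 and 0.915 in edgeR) on at most 14.6 estimated counts per library. Intervals were widest for *Nr5a2* and *Esrrb*, both under 1 CPM. Only 1 time point, 1 h after training, was measured.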
